A study of Mus musculus with 60 samples.

Results

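The lungs of mice that had inhaled superparamagnetic iron oxide (SPIO) nanoparticles were compared with those of sham controls 6 h after the exposure, by the columns labelled SPIO and CON of that time, which are 10 of the 60 arrays of the series. All mice were male Balb/c mice held in a nose-only inhalation system for 4 h. SPIO nanoparticle exposed mice breathed an aerosol of the particles, and sham controls breathed the same humidified mixture of helium, oxygen and filtered air without particles, so that both groups shared the restraint, the gas mixture and the handling. The labels give a total mass of 365 ug for the SPIO mice. Per the paper this is the inhaled mass, calculated from breathing and aerosol concentration, and the mass measured as deposited was far smaller. The 2 groups held 5 mice each, and total RNA of the right diaphragmatic lobe of each mouse was hybridised to an Affymetrix mouse genome array of its own. Similar pairs of groups were taken at 0, 24, 48, 96 and 168 h. Per the paper, mice assigned to 168 h were kept after exposure in metabolism cages on a liquid diet, so housing and diet differed there. Breathing was measured during exposure in 5 mice per group that were scheduled for 96 h. The age of the mice, the time of day, the exposure day and the hybridisation batch are not given in the sources used here, so their part in a difference between the groups cannot be told apart from the exposure. The whole lobe was measured, so fewer cells of a type and less RNA per cell cannot be told apart either.

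Inhaled particles that reach the alveoli are met by epithelial cells and alveolar macrophages, both of which release chemokines, small secreted proteins that draw leukocytes out of the blood. Chemokines with a glutamate-leucine-arginine motif, such as the CXC chemokines Cxcl1, Cxcl2, Cxcl3 and Cxcl5, act on the receptor Cxcr2 of neutrophils, whereas many CC chemokines act on monocytes, lymphocytes and dendritic cells. Many of these genes are targets of the transcription factor NF-kB, which also switches on its own inhibitors. Iron oxide adds a metal that cells store in ferritin, export through ferroportin and, when it arrives in heme, free with heme oxygenase 1.

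Levels are given on the deposited log2 scale, where a difference of 1 is a 2-fold change, and the probe set with the highest mean over the 60 arrays stands for each of 18193 genes. The medians of the 10 arrays over all probe sets lay between 5.55 and 5.6, and arrays of the same 6 h group correlated at 0.987 to 0.995. Lung was evident in every array, with the type 2 cell gene Sftpc between 14.88 and 14.94 and the club cell gene Scgb1a1 between 14.98 and 15.08. Array 1 of the SPIO group had the narrowest spread of the 10, with an interquartile range over genes of 4.03 against 4.18 to 4.43 in the others. The amount of adjoining tissue differed between mice of both groups: the mean level of 15 cardiac muscle markers ran from 5.35 to 8.86 in SPIO mice and from 5.22 to 9.996 in sham controls, and that of 15 airway markers from 8.70 to 10.03 and from 8.30 to 10.53. Of 14 mesothelial markers 13 had a negative log2 fold change, with a median of -0.42, 0 calls and 2 at an unadjusted p under 0.05, and their part in the results below was not tested. In limma, fitted over all 12 groups, 212 genes differed at an adjusted p under 0.05, which is 1.17% of those tested. At an unadjusted p under 0.05 there were 2158, or 11.9%, the share against which such counts in the gene lists stand. Of the 212, 138 were higher in SPIO mice (0.759%) and 74 lower (0.407%), and the median log2 fold change of all genes was 0.03. The groups did not overlap in 111 of the 138 and 65 of the 74, against 2.14% and 1.23% of all genes in these directions (3.36% in either). Most changes were small, since 14 of the 138 and 11 of the 74 reached 2-fold. Without SPIO mouse 1, 242 genes were higher and 49 lower, and these included 124 of the 138 and 46 of the 74. The count of 212 fell to 98 without sham mouse 2 and to 109 without SPIO mouse 4.

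Chemokines carried the largest increases. Of 33 chemokine genes measured, 8 were higher in SPIO mice and 0 lower, which is 24.2% of them against 0.759% of all genes. Before their levels, the promoters of 4 of these chemokines are shown, because they share a short element. The element of NF-kB searched opens with GGG and closes with TTTCC, with any 2 bases between, and it was searched on both strands in the 250 bases before the start of each gene, in the RefSeq promoters of mouse build GRCm38.p6. Such letters stood in 464 of 32851 promoters (1.41%), and in 4 of the 6 higher chemokines that could be matched to a promoter, Cxcl1, Cxcl2, Cxcl3 and Ccl20, but not in Ccl3 or Ccl17. The last 120 bases before each start are given 5′ to 3′ with these letters in capitals, and an element on the other strand reads GGAAA, any 2 bases and CCC. All 4 windows are on the plus strand, at chr5:90891125-90891244 for Cxcl1, chr5:90903779-90903898 for Cxcl2, chr5:90785981-90786100 for Cxcl3 and chr1:83116646-83116765 for Ccl20.
Cxcl1: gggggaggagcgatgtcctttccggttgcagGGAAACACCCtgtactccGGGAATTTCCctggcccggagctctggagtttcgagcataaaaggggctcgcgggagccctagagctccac
Cxcl2: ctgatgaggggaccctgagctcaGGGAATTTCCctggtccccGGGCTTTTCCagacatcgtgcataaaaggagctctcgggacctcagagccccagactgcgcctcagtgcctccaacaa
Cxcl3: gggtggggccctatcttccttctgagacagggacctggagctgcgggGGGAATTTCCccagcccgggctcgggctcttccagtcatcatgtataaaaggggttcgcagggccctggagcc
Ccl20: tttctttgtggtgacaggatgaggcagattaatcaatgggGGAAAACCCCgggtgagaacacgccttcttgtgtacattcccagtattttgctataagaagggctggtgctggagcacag

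The element began at -71 and, on the other strand, -89 in Cxcl1, at -97 and -78 in Cxcl2, at -73 in Cxcl3 and at -80, on the other strand, in Ccl20. The same letters, GGGAATTTCC, stood at -71 in Cxcl1, -97 in Cxcl2 and -73 in Cxcl3, genes that lie close together on chromosome 5. Among all higher genes with a promoter, 9 of 109 held the element, against 244 of 14452 genes tested that could be matched to a promoter (1.69%) and 0 of the 54 lower genes with a promoter. The other 5 were Steap4, Tnfrsf9, Tnfaip3, Mvd and Nfkb2. Other letters searched in the same way were TGACNNNGC, the antioxidant response element, in 19 of the 109 higher genes and 13.5% of genes, TGANTCA, the AP-1 site, in 10 and 6.70%, and TATAAA, the TATA box, in 9 and 10.5%. These matches describe the sequence and say nothing of which factor was bound.

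Cxcl5, a neutrophil chemokine made by alveolar epithelium, had the largest increase of any gene. Its level was 9.88, 9.24, 8.11, 9.68 and 8.52 in SPIO mice 1 to 5, and 5.56, 6.08, 5.33, 5.69 and 6.19 in sham mice 1 to 5. The lowest SPIO mouse, number 3, lay well above the highest sham mouse, number 5. The difference was 3.31 on the log2 scale (95% confidence interval 2.27 to 4.36), 9.94-fold, with limma's adjusted p = 7.29e-05. Cxcl3 was at 6.81, 6.36, 4.71, 6.36 and 5.78 in SPIO mice and at 3.11, 3.46, 3.24, 3.18 and 3.76 in sham controls, a rise of 2.66 (standard error 0.28, adjusted p = 8.20e-09). The sham levels of Cxcl3 were close to the lowest value of the table, 2.15, and RMA gives no detection call, so how far they stood above background is unknown. Cxcl1, also called KC, was at 9.999, 10.06, 9.02, 10.34 and 9.37 in SPIO mice and at 7.36, 7.44, 7.60, 6.84 and 7.64 in sham controls, a rise of 2.38 (standard error 0.29, adjusted p = 3.37e-07). The other probe sets of Cxcl1 rose by 2.56 and 0.87. Cxcl2, known as MIP-2, was at 6.85, 6.79, 6.14, 6.84 and 5.50 against 4.70, 4.93, 4.76, 4.30 and 5.01, a rise of 1.68 (standard error 0.30, adjusted p = 0.000513). In all of these 4 genes every SPIO mouse was above every sham mouse, and SPIO mice 3 and 5 were the lowest of their group. The other members of the neutrophil list did not pass: Cxcl15, or lungkine, an abundant chemokine of lung epithelium, was at 13.92 ± 0.10 against 13.63 ± 0.10 (SD, n = 5; adjusted p = 0.0889), and the platelet chemokine Ppbp at 8.80 ± 0.25 against 8.89 ± 0.29. The other probe set of Cxcl15 rose by 0.47 (limma over all probe sets, adjusted p = 0.00995). Cxcl15 was also called higher with averaged probe sets, another quantile normalization or array weights. In the main fit the list had 4 of 6 members higher, with a median of 2.03.

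**Figure D1:**
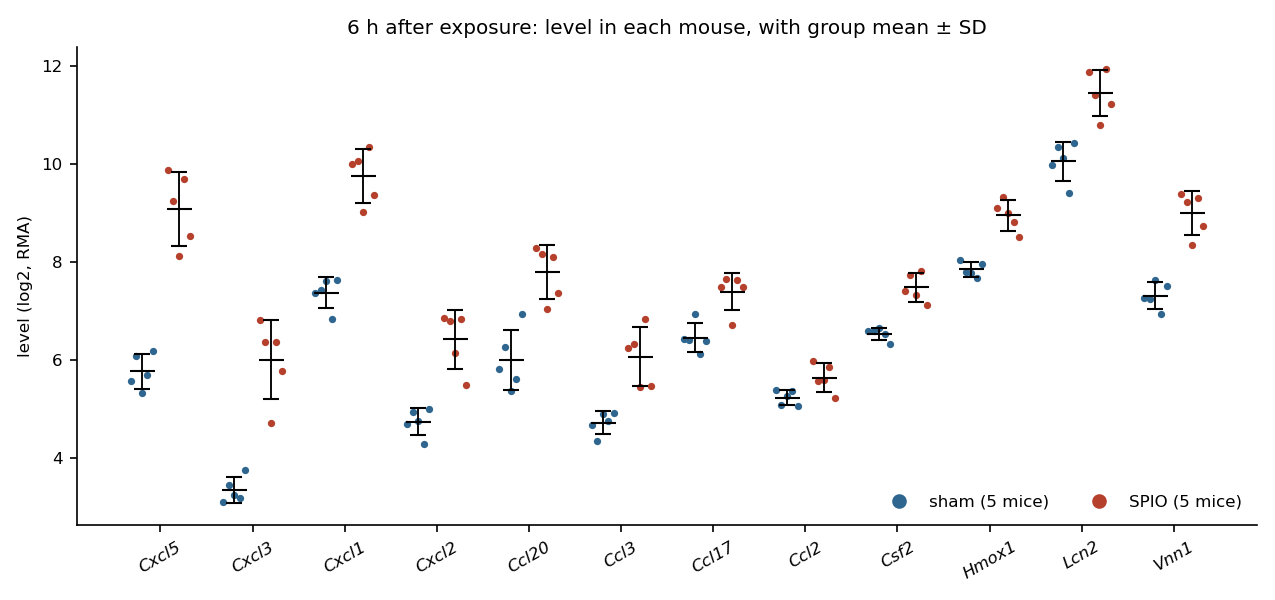
Level of 12 genes in each of the 5 sham and 5 SPIO mice at 6 h, on the log2 scale of the deposited values, with the mean and SD of each group as a bar. The groups do not overlap for Cxcl5, Cxcl3, Cxcl1, Cxcl2, Ccl20, Ccl3, Csf2, Hmox1, Lcn2 and Vnn1, whereas for Ccl17 and Ccl2 at least 1 SPIO mouse lies within the sham range.

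The other 4 chemokines that rose act on other leukocytes. Ccl20, which attracts immature dendritic cells and T cells through Ccr6, was at 8.29, 8.17, 7.04, 8.09 and 7.36 in SPIO mice and at 5.81, 6.27, 5.38, 5.61 and 6.94 in sham controls. SPIO mouse 3 lay just above sham mouse 5, the nearest pair of the groups, and the rise was 1.79 (standard error 0.37, adjusted p = 0.00342). Ccl3, or MIP-1 alpha, a chemokine of monocytes and macrophages, was at 6.24, 6.34, 5.45, 6.85 and 5.47 against 4.67, 4.34, 4.90, 4.76 and 4.91, a rise of 1.35 (standard error 0.22, adjusted p = 0.000124). Ccl17, which acts on Ccr4 of T cells, was at 7.49, 7.66, 6.72, 7.62 and 7.49 against 6.43, 6.41, 6.93, 6.13 and 6.39, a rise of 0.94 (standard error 0.19, adjusted p = 0.00285), and SPIO mouse 3 lay below sham mouse 3. The smallest called rise was that of the monocyte chemokine Ccl2, 0.41 (standard error 0.10, adjusted p = 0.0263), with overlapping groups, and its call was lost in 4 of the 10 fits that left out a mouse. Of the 8 CC chemokines of monocytes and macrophages 2 rose, with a median of 0.38, and of the 19 chemokines of lymphocytes, dendritic cells and eosinophils 2 rose, with a median of 0.11. Ccl12 (6.41 ± 0.68 against 5.71 ± 0.32), Ccl7 (4.28 ± 0.41 against 3.87 ± 0.07) and Ccl9 (9.56 ± 0.39 against 9.21 ± 0.51) did not pass. Cxcl10, the interferon-induced chemokine, was at 5.69 ± 0.60 against 5.09 ± 0.28 (adjusted p = 0.0605), and SPIO mouse 2 stood above the rest of its group at 6.74. Depending on the mouse left out, 7 to 9 chemokines passed. The 7 other than Ccl2 passed in each of these 10 fits, and Cxcl10 passed as well without sham mouse 1, SPIO mouse 3 or SPIO mouse 5.

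The signals next to the chemokines were more selective. Csf2, or GM-CSF, the growth factor on which alveolar macrophages depend, was at 7.40, 7.74, 7.33, 7.82 and 7.12 in SPIO mice and at 6.59, 6.59, 6.64, 6.53 and 6.34 in sham controls, a rise of 0.94 (standard error 0.15, adjusted p = 5.62e-05). It was the only member called among 29 colony-stimulating factors and inflammatory cytokines, whose median was -0.03. Tnf was at 5.22 ± 0.17 against 4.97 ± 0.19, Il1a at 7.0 ± 0.12 against 6.71 ± 0.17, Il1b at 8.56 ± 0.18 against 8.63 ± 0.47, Il6 at 3.31 ± 0.18 against 3.11 ± 0.15 and Csf3 at 5.09 ± 0.18 against 5.23 ± 0.14, and none of these passed. The 95% confidence interval of the difference in Il1b was -0.69 to 0.54, so the data still allowed a fall or a rise within these bounds. Of 21 chemokine receptors 0 were called, with a median of 0.03 and log2 fold changes of -0.46 to 0.25, and 0 of them had an unadjusted p under 0.05. Of 26 innate immune receptors 0 were called (5 at an unadjusted p under 0.05), and of 14 leukocyte adhesion genes 0 (4 at an unadjusted p under 0.05), among which Icam1, a ligand of neutrophil integrins, was at 11.86 ± 0.09 against 11.61 ± 0.15 without overlap.

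Some genes of the NF-kB pathway rose by small amounts. Of 26 measured, 6 rose and 0 fell. A positive log2 fold change was found in 25 of the 26, against 61.6% of all genes, and the median was 0.23 against 0.03 for all genes. Of the 6, Tnfaip3, Tnip1 and Zc3h12a limit NF-kB signalling or its products. Tnfaip3, or A20, a ubiquitin-editing enzyme that ends NF-kB signalling, was at 9.15, 9.18, 8.93, 9.33 and 9.02 in SPIO mice and at 8.68, 8.57, 8.69, 8.33 and 8.32 in sham controls, a rise of 0.61 (standard error 0.10, adjusted p = 0.000309). Its binding partner Tnip1 rose by 0.37 (standard error 0.06, adjusted p = 0.000309) and Zc3h12a, or regnase-1, a nuclease that degrades cytokine mRNAs, by 0.40 (standard error 0.11, adjusted p = 0.0371). Neither gene had overlapping groups. The subunit gene Nfkb2 rose by 0.44 (adjusted p = 0.0268), the nuclear cofactor Nfkbiz by 0.52 (adjusted p = 0.0458) and the receptor Tnfrsf9, or 4-1BB, by 0.62 (adjusted p = 0.00956). The rises of Nfkbiz, Nfkb2 and Zc3h12a each rested on a single probe set. Other probe sets were at -0.33 and -0.09 for Nfkbiz, 0.17 for Nfkb2 and 0.13 for Zc3h12a. Those of Tnfaip3 (0.41) and Tnfrsf9 (0.73 and 0.03) were all positive. With averaged probe sets 4 members of the list passed, without Nfkbiz and Zc3h12a. The calls of Zc3h12a, Nfkbiz and Nfkb2 were lost in 8, 7 and 5 of the 10 fits that left out a mouse, in each case including those without sham mouse 2 or SPIO mouse 4. In these fits 3 to 5 members of the list passed, and 2 passed in a fit of only the 10 arrays of 6 h, against 9 with array weights.

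Markers of neutrophils gave no call beside their chemokines. Of 15 measured, 0 were called and 1 had an unadjusted p under 0.05, and their median was -0.17. The mean level of these markers was 7.23 to 7.58 in SPIO mice and 7.30 to 8.02 in sham controls. S100a8, the abundant calcium-binding protein of neutrophils, was at 11.72 ± 0.30 against 12.13 ± 0.46, its partner S100a9 at 11.87 ± 0.27 against 12.25 ± 0.46 and the receptor Cxcr2 at 7.04 ± 0.26 against 7.32 ± 0.32. The 95% confidence interval of the S100a8 difference, -1.18 to 0.36, still allowed a rise of 0.36. Of 13 monocyte markers 0 were called (0 at an unadjusted p under 0.05), and the median was -0.05. Markers of T and NK cells likewise gave 0 calls (0 at an unadjusted p under 0.05 of 16), as did those of B and plasma cells (1 of 15), eosinophils, basophils and mast cells (1 of 13), fibroblasts and smooth muscle (1 of 17), type 1 alveolar cells (2 of 12), type 2 alveolar cells (2 of 14) and endothelium (5 of 18). Of 20 alveolar macrophage markers 2 rose, with a list median of -0.15. At an unadjusted p under 0.05, 2 were higher and 4 lower, and 7 of the 20 had a positive log2 fold change. Fabp5, a fatty acid binding protein, rose by 0.59 (adjusted p = 0.0158), a call lost without sham mouse 1 or SPIO mouse 4, and Gpnmb, a glycoprotein of lipid-laden macrophages, by 0.49 (adjusted p = 0.0483), whose call was lost in 8 of 10 fits that left out a mouse. The macrophage lectin Chil3 was at 11.96 ± 0.18 against 12.40 ± 0.16, without overlap but with an adjusted p of 0.161. Among 12 dendritic cell markers only the transcription factor Zbtb46 rose, by 0.52 (adjusted p = 0.00916). Its other probe sets were at 0.07, 0.36 and 0.13, and with averaged probe sets the difference was 0.27 (adjusted p = 0.0617) and did not pass.

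**Figure D2:**
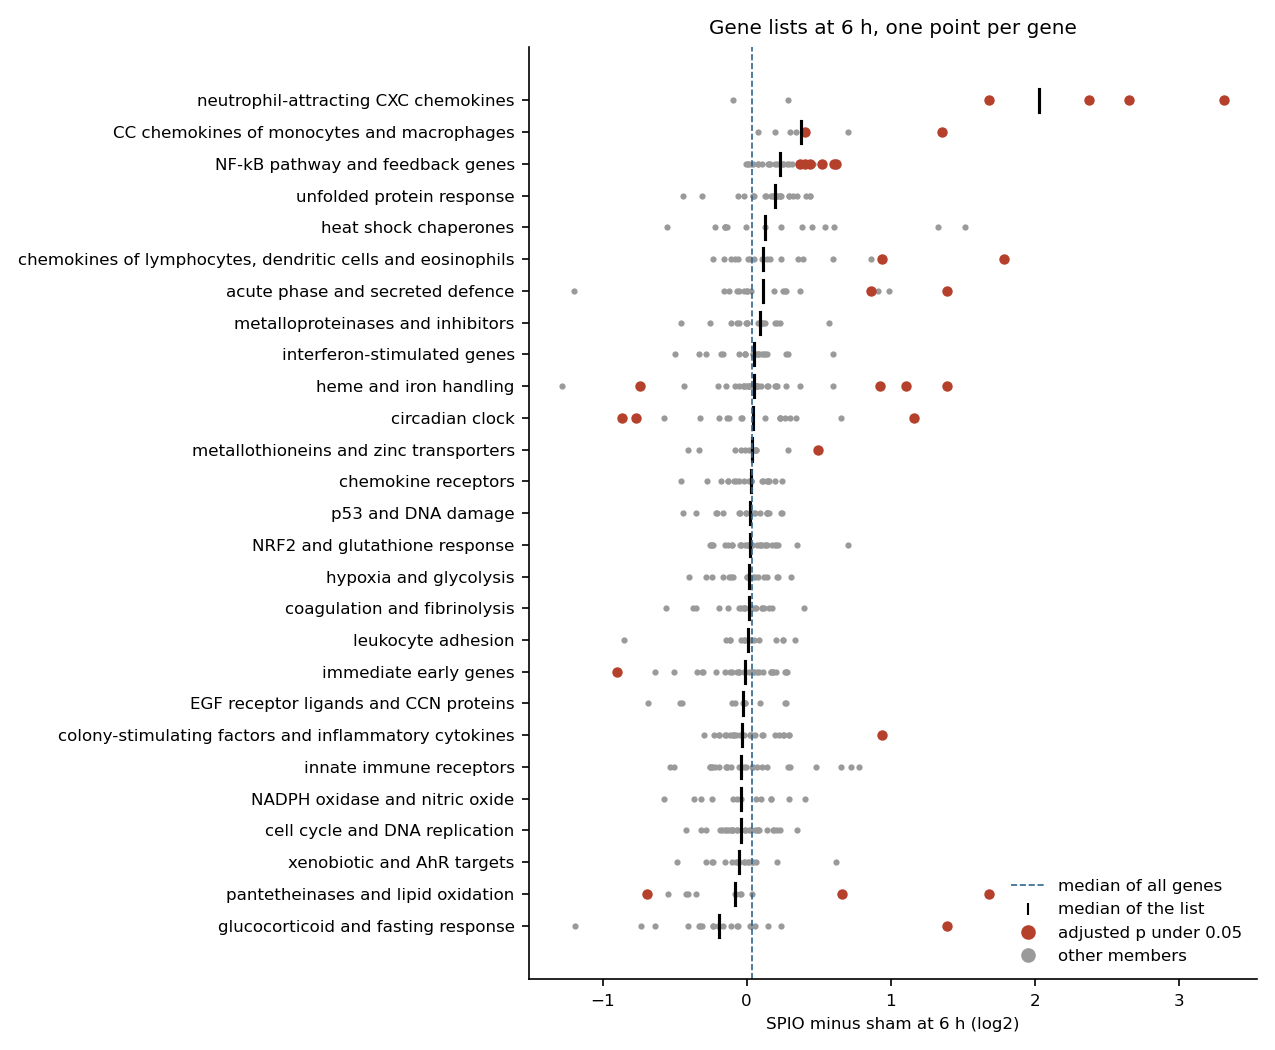
Log2 fold change at 6 h of the members of 27 pathway lists, ordered by list median (black bars); red points passed an adjusted p under 0.05 and grey points did not. The neutrophil-attracting CXC chemokines had the highest median, 2.03, followed by the CC chemokines of monocytes and macrophages at 0.38 and the NF-kB list at 0.23, whereas the dashed median of all genes was 0.03.

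Genes of heme and iron handling moved singly rather than as a group. Of 36 measured, 3 rose and 1 fell, with a median of 0.05. Hmox1, heme oxygenase 1, was at 9.10, 9.33, 9.0, 8.82 and 8.5 in SPIO mice and at 8.04, 7.79, 7.77, 7.67 and 7.96 in sham controls, a rise of 1.11 (standard error 0.18, adjusted p = 0.000126) with no overlap. Lcn2, or lipocalin 2, which withholds iron from bacteria by binding their siderophores, was at 11.87, 11.40, 10.79, 11.94 and 11.22 against 9.98, 10.35, 10.11, 9.40 and 10.42, a rise of 1.39 (standard error 0.23, adjusted p = 0.000194). Steap4, a metalloreductase of the cell surface and of endosomes, rose by 0.93 (standard error 0.18, adjusted p = 0.00237), from 8.88 ± 0.30 to 9.81 ± 0.37. Its relative Steap3, the ferrireductase of transferrin endosomes, was lower, at -0.74 on the log2 scale (standard error 0.19, adjusted p = 0.0264), a call that was lost without SPIO mouse 1, SPIO mouse 4, sham mouse 2 or sham mouse 4. The genes of iron storage, uptake and export did not pass. Fth1, the ferritin heavy chain, was at 14.38 ± 0.04 against 14.32 ± 0.05, the transferrin receptor Tfrc at 10.45 ± 0.09 against 10.46 ± 0.15 and ferroportin, Slc40a1, at 8.32 ± 0.13 against 8.26 ± 0.24. The 95% confidence interval of Tfrc ran from -0.25 to 0.22 and that of Slc40a1 from -0.21 to 0.34. The Tfrc interval is that of the probe set used. Its other probe sets, dimmer at means of 5.71 and 5.17, were at -0.06 and -1.05. Neither passed in limma over all probe sets (adjusted p = 0.926 and 0.0545). Beside Hmox1, 0 of the 31 members of the NRF2 and glutathione list were called and 7 had an unadjusted p under 0.05, with a median of 0.02. Nqo1 was at 6.65 ± 0.13 against 6.64 ± 0.23, Srxn1 at 7.79 ± 0.05 against 7.77 ± 0.21, Gclm at 10.08 ± 0.14 against 10.23 ± 0.17 and Gclc at 10.53 ± 0.16 against 10.77 ± 0.13. Of 12 metallothioneins and zinc transporters only the intestinal-type zinc importer Slc39a4 rose, by 0.49 (adjusted p = 0.0359), a call lost in 8 of 10 fits that left out a mouse, while Mt1 was at 10.52 ± 0.31 against 10.92 ± 0.24.

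Several secreted and epithelial genes were higher. Among 18 acute phase and defence genes 2 rose, Lcn2 and Chil1, a chitinase-like lectin made by epithelium and macrophages. Chil1 was at 12.60, 12.45, 12.10, 12.85 and 12.49 in SPIO mice and at 11.51, 11.66, 11.78, 11.43 and 11.78 in sham controls, a rise of 0.86 (standard error 0.12, adjusted p = 2.65e-06). Saa3, the serum amyloid A of inflamed tissue, was at 8.92 ± 0.45 against 7.93 ± 0.38 (adjusted p = 0.328) with overlapping groups. Itih4, a heavy chain of the hyaluronan-binding inter-alpha-inhibitor family, rose by 1.09 (standard error 0.17, adjusted p = 4.72e-05), and Has3, a hyaluronan synthase, by 0.94 (standard error 0.19, adjusted p = 0.00262). Noxo1, the organiser subunit of the epithelial NADPH oxidase Nox1, was at 8.24, 8.21, 7.41, 8.60 and 7.71 against 6.56, 6.36, 6.80, 6.22 and 6.76, a rise of 1.49 (standard error 0.17, adjusted p = 1.48e-07). It was not a member of the list of NADPH oxidase and nitric oxide genes, of which 0 of 13 were called (4 at an unadjusted p under 0.05). Slc6a20a, a transporter of proline, was at 5.74, 6.65, 5.82, 6.35 and 6.22 against 4.86, 5.06, 5.09, 4.58 and 4.49, a rise of 1.34 (standard error 0.22, adjusted p = 0.000201). Slc26a4, or pendrin, the anion exchanger of airway epithelium, named after its values were seen, was at 7.22 ± 0.56 against 5.96 ± 0.59 (adjusted p = 0.0191) and overlapped because sham mouse 3 stood at 7.0. Hsd11b2, which inactivates corticosterone, rose by 0.81 (adjusted p = 4.72e-05) and Tjp3, a protein of tight junctions, by 0.75 (adjusted p = 0.00423). Pcdh12, a protocadherin of endothelium, rose by 0.71 (adjusted p = 0.0372), a call lost in 7 of 10 fits that left out a mouse.

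Genes of lipid handling moved in both directions. Vnn1, or vanin 1, a pantetheinase that releases cysteamine, was at 9.39, 9.22, 8.34, 9.31 and 8.72 in SPIO mice and at 7.27, 7.24, 7.62, 6.93 and 7.52 in sham controls, a rise of 1.68 (standard error 0.20, adjusted p = 3.09e-07). Its other probe set rose by 1.83, and its relative Vnn3 rose by 0.66 (adjusted p = 0.00956). Cpt1a, the enzyme that admits long-chain fatty acids to mitochondria, was at 9.39, 9.73, 9.56, 9.47 and 9.66 against 10.47, 10.20, 10.34, 9.95 and 10.31, a difference of -0.69 (standard error 0.12, adjusted p = 0.000477), and its other probe sets were at -0.55 and -0.56. Acaa1b, a thiolase of peroxisomal fatty acid oxidation, was at 8.51 ± 0.34 against 9.66 ± 0.49 (log2 fold change -1.14, adjusted p = 0.0127), and transcripts of its near-identical relative Acaa1a could bind its probes. Its call was lost without sham mouse 3 or SPIO mouse 4. Abcd2, a peroxisomal fatty acid transporter, was at 6.78 ± 0.45 against 7.92 ± 0.22 (log2 fold change -1.14, adjusted p = 0.00992), a call lost without sham mouse 2, whereas its other probe sets were at 0.07, -0.16 and 0.05. Of the 12 members of the list of pantetheinases and lipid oxidation 2 rose and 1 fell, with a median of -0.08.

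Among 18 clock genes 1 rose and 2 fell in the fit over all groups. In a fit of only the 6 h arrays Npas2 and Arntl were called higher, and Nr1d2 and Hlf, the 2 that fell, were not called. Npas2, a partner of Bmal1 in the activating arm of the clock, was at 6.64, 7.19, 6.76, 7.23 and 7.23 in SPIO mice and at 5.66, 5.02, 6.25, 6.12 and 6.20 in sham controls, a rise of 1.16 (standard error 0.27, adjusted p = 0.0151). Nr1d2, or Rev-erb beta, a repressor, was at 9.19, 9.38, 9.87, 8.67 and 9.29 against 10.32, 10.80, 9.75, 9.995 and 9.86, a difference of -0.87 (standard error 0.16, adjusted p = 0.00109), with overlap at SPIO mouse 3. Hlf, an output gene, was at 7.27 ± 0.44 against 8.04 ± 0.16 (adjusted p = 0.0302), a call lost in 5 of 10 fits that left out a mouse, and its other probe set was at -0.07. Arntl, which encodes Bmal1, was at 9.32 ± 0.16 against 8.67 ± 0.28 (adjusted p = 0.262) without overlap, and Dbp was at 7.11 ± 0.20 against 7.69 ± 0.50. Comparisons of each 6 h group with the other times of its own arm share the 6 h arrays with the one above. The other times lie whole days apart, so 6 h may also differ from them in time of day, which is not given. Time of day and time after exposure cannot be told apart here, nor in the contrasts of 6 h with 0 and 24 h below. Npas2 was higher by 2.87 in SPIO mice of 6 h and by 1.81 in sham controls of 6 h than over the other times of the same arm, and Nr1d2 was at -2.37 and -1.79. The call of Npas2 was lost without sham mouse 2 or SPIO mouse 4. Per1 was at 9.03 ± 0.39 against 9.22 ± 0.30 and Per2 at 8.54 ± 0.25 against 8.66 ± 0.37.

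Heat shock genes did not pass in the fit over all groups with 1 probe set per gene. Hspa1b, an inducible Hsp70, was at 11.32, 10.57, 10.80, 10.89 and 10.40 in SPIO mice and at 9.12, 8.78, 8.57, 9.78 and 10.13 in sham controls, a difference of 1.52 (standard error 0.53, adjusted p = 0.164) with no overlap between the groups. Hspa1a was at 9.15 ± 0.40 against 7.82 ± 0.52 (adjusted p = 0.241), and since both genes are near-identical their probes cannot be taken as separate measurements. In a fit of only the 10 arrays of 6 h, Hspa1b and Hspa1a passed, with adjusted p = 0.0327 and 0.0344, and over the other limma alternatives the adjusted p of Hspa1b was 0.0522 to 0.372. Of 15 heat shock genes 0 were called in the fit over all groups, with 5 higher and 1 lower at an unadjusted p under 0.05, and a median of 0.12. With array weights Dnajb1 and Dnaja1 were called higher, and in the fit of the 6 h arrays Hsp90aa1 was called lower beside the rise of Hspa1a and Hspa1b. The other probe sets of Dnaja1 were at 0.80 and 0.52, with adjusted p = 0.0220 and 0.487 in limma over all probe sets. Of 24 genes of the unfolded protein response 0 were called, 9 were higher at an unadjusted p under 0.05, and 20 had a positive log2 fold change (61.6% over all genes), with a median of 0.20. Hspa5, the main chaperone of the endoplasmic reticulum, was at 12.90 ± 0.13 against 12.67 ± 0.06. Lists without any call were interferon-stimulated genes (22 genes, 3 at an unadjusted p under 0.05), hypoxia and glycolysis (18 and 2), p53 and DNA damage (18 and 3), xenobiotic and AhR targets (19 and 0), EGF receptor ligands and CCN proteins (12 and 5), metalloproteinases and inhibitors (19 and 1), coagulation and fibrinolysis (20 and 2), and cell cycle and DNA replication (28 and 2). In the glucocorticoid and fasting list only Lcn2 was called of 22, and the list had the lowest median of the 27 pathway lists, -0.19.

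The genes that fell furthest in SPIO mice without overlap between the groups are given next with their other probe sets and mice. Rufy2, an endosomal adaptor, was at 4.61, 4.95, 4.90, 4.21 and 4.88 in SPIO mice and at 6.04, 6.23, 6.48, 6.36 and 6.12 in sham controls, a difference of -1.54 (standard error 0.20, adjusted p = 7.63e-07). Nipbl, the loader of cohesin, was at 7.66, 8.86, 8.61, 8.47 and 8.95 against 9.62, 9.78, 9.76, 10.02 and 9.64 (log2 fold change -1.26, adjusted p = 1.0e-05), and the transcription factor Sp4 at 6.30, 7.77, 7.38, 7.44 and 7.10 against 8.46, 8.56, 8.53, 8.14 and 8.37 (log2 fold change -1.22, adjusted p = 5.88e-05). No SPIO mouse reached the sham range in these 3 genes. Chd4, an ATPase of the NuRD complex, was at 7.94, 9.45, 9.14, 9.33 and 9.56 against 10.25, 10.31, 10.18, 10.26 and 10.13 (log2 fold change -1.14, adjusted p = 0.00528). Its call was lost in a fit of only the 6 h arrays. Gatad2b, its NuRD partner, was at -0.86 (adjusted p = 0.0493), a call lost in 9 of 10 fits that left out a mouse. The other probe sets of Gatad2b were at -0.005, 0.05, 0.07 and -0.001, and with averaged probe sets its difference was -0.15 and did not pass. Jund, a member of the AP-1 family and the only one of 30 immediate early genes called, was at 11.60 ± 0.31 against 12.50 ± 0.20 (log2 fold change -0.90, adjusted p = 0.000201). Ear3, an eosinophil-associated ribonuclease whose family members are near-identical, was at 8.35 ± 0.21 against 9.43 ± 0.20 (log2 fold change -1.08, adjusted p = 0.00302). Lipa, lysosomal acid lipase, was at 9.59 ± 0.37 against 10.45 ± 0.11 (log2 fold change -0.86, adjusted p = 0.00720). Ankrd52, Sntb2, Zc3h15, Zfp626, Zfp398, Eif2ak2, N4bp2l2, Cygb, Polr3f and Zfp729a made up the rest of the 20 lower named genes without overlap, with log2 fold changes of -1.16 for Ankrd52 to -0.83 for Zfp729a. Among them Cygb lost its call in 6 of 10 fits that left out a mouse, Ankrd52 in 2, and Zfp398 and Zfp729a without SPIO mouse 1.

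Other probe sets of the lower genes often gave smaller differences. They were at -0.20, 0.01 and -0.11 for Rufy2, at 0.09, -0.36, 0.00 and -0.17 for Nipbl, at -0.35 for Sp4 and at 0.05 for Jund. Those of Lipa were at 0.28 and 0.47, against -0.86 for the probe set that stood for it. Chd4 had 1 other probe set at -1.12 and 1 at -0.04. Over the 59 lower genes with other probe sets, 14 of the 143 others passed in the same direction (background 1.65% of all probe sets), in 12 of the genes, and 0 in the opposite one, with a median of -0.07. Over the 81 higher genes with other probe sets, 20 of the 165 others passed in the same direction (background 0.617%), in 13 of the genes, and 1 in the opposite one, with a median of 0.11. The difference between higher and lower genes in these counts was not tested. SPIO mouse 1, whose array had the narrowest spread, had the lowest level of the SPIO group in 53 of the 74 lower genes, against the highest level in 20 of the 138 higher genes. Whether the spread of that array takes part in these values was not tested.

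**Figure D3:**
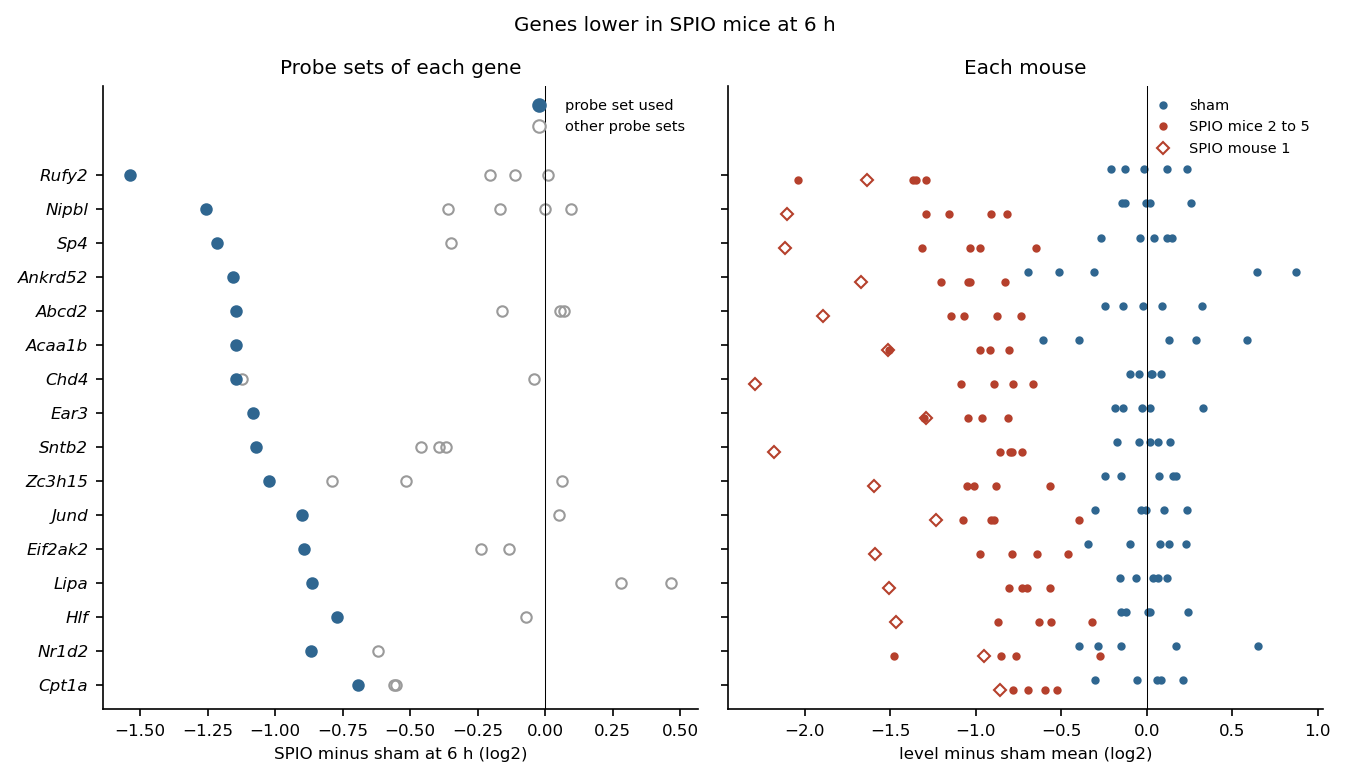
Genes lower in SPIO mice at 6 h: the left panel gives the log2 fold change of the probe set that stood for a gene (filled) and of its other probe sets (open), and the right panel each mouse's level minus the sham mean, with SPIO mouse 1 as a diamond. The probe set used for Nipbl is at -1.26 with its others between -0.36 and 0.09, and SPIO mouse 1 is the farthest left for Chd4 and Sntb2.

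The lower genes were low in SPIO mice at other times too, in mice other than those of 6 h. Of the 74, 13 were also called lower at 0 h (background 1.11% of all genes) and 56 at 24 h (3.66%). The later times gave 31 at 48 h (1.89%), then 42 at 96 h (0.885%) and 45 at 168 h (1.62%), and 59 had a negative log2 fold change at all 6 times, against 8.64% of all genes negative at 6 h. Nipbl was at -0.84 at 0 h, -1.36 at 24 h and -1.46 at 168 h, and Jund at -0.40, -1.01 and -0.96. Genes called lower at all 6 times numbered 9, and Rufy2, Nipbl and Sp4 were among them. Of the 138 higher genes, 24 were also called higher at 0 h (background 2.56%) and 59 at 24 h (20.3%). The later times gave 33 at 48 h (10.7%), then 9 at 96 h (0.522%) and 4 at 168 h (0.566%). A positive log2 fold change at all 6 times was found in 54, against 17.3% of all genes positive at 6 h, and P2rx7, a channel gated by ATP, and Cbx6 were called at all 6. Acaa1b was at 0.13 at 0 h and 0.08 at 24 h, and Cpt1a at 0.07 and -0.10. For Cpt1a the effect at 6 h differed from that at 0 h by -0.76 (adjusted p = 0.0195) and from that at 24 h by -0.59 (adjusted p = 0.0423).

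**Figure D4:**
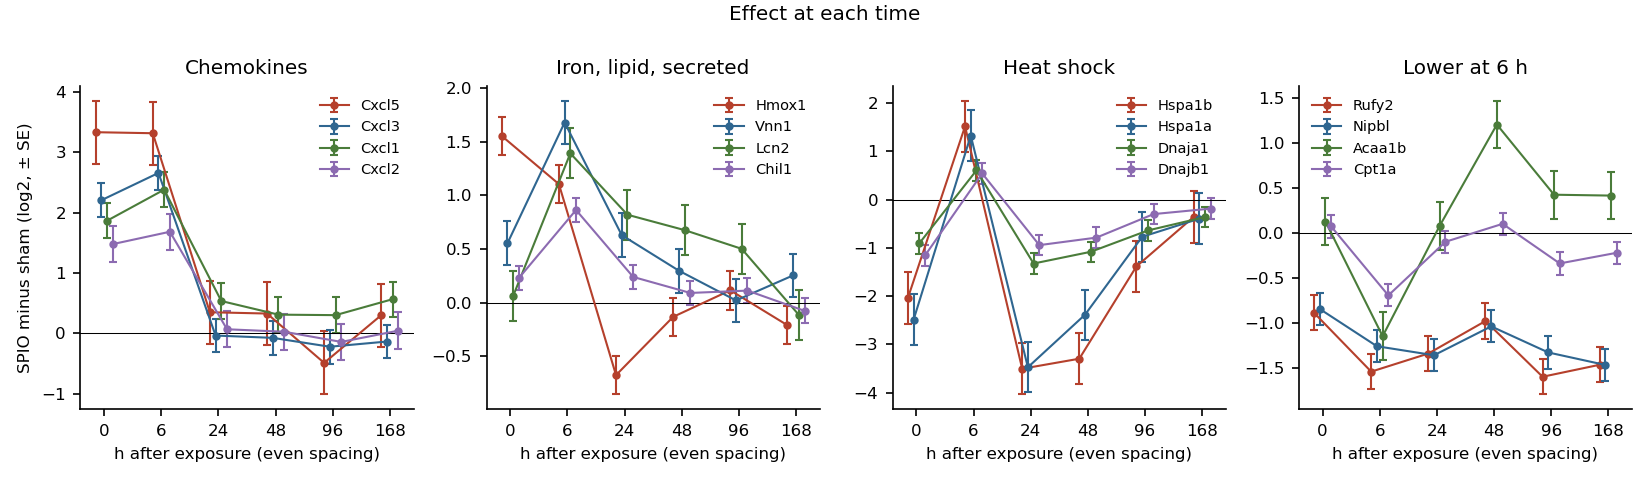
Difference between SPIO mice and sham controls (log2, mean ± standard error of limma, 5 mice per group) at 0, 6, 24, 48, 96 and 168 h, with the times spaced evenly. Cxcl5 stands at 3.33 at 0 h and 3.31 at 6 h, Hmox1 at 1.55 and 1.11, and Lcn2 at 0.06 and 1.39. Between these times the difference passed the threshold for Lcn2 but not for Cxcl5 or Hmox1 (limma, adjusted p = 0.479 for Hmox1). Hspa1b is positive only at 6 h, at 1.52.

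Set against the end of exposure, no difference in the effect on the neutrophil chemokines passed the threshold. The effect on Cxcl5 was 3.33 at 0 h, and the difference between the times was -0.02 (standard error of the difference 0.74, adjusted p = 0.997). Cxcl3 was at 2.20 and Cxcl1 at 1.87 at 0 h, and their differences of 0.45 and 0.51 had adjusted p values of 0.71 and 0.682. Over all genes the effect differed between 6 h and 0 h in 161 (0.885%), in 99 towards the positive (0.544%) and in 62 towards the negative (0.341%). Lcn2 was at 0.06 at 0 h and 1.39 at 6 h (difference 1.33, adjusted p = 0.0326). Other genes with a larger effect at 6 h were Vnn1 (difference 1.13, adjusted p = 0.0386), Hsd11b2 (0.75, adjusted p = 0.0211) and Chil1 (0.63, adjusted p = 0.0415). Among the genes with the smallest adjusted p, most went from a negative difference at 0 h to a positive one at 6 h: Igfbp4, a binding protein of insulin-like growth factors, from -0.47 to 0.48, Mtmr4, an endosomal phosphatase, from -0.36 to 0.58, Zfp9 from -0.29 to 0.51, Dido1 from -0.46 to 0.37, Zbtb46 from -0.42 to 0.52, Cstf3, a subunit of the cleavage stimulation factor, from -0.21 to 0.51, and the kinase Tnik from -0.96 to 0.51. Tceanc and the cell cycle inhibitor Cdkn2b went the other way, from 0.77 to -0.16 and from 0.60 to -0.23. At 6 h the other probe sets of Dido1 were at -0.25, -0.06, -0.04 and 0.18, and with averaged probe sets its difference was 0.04. The 6 h call of Dido1 was lost in 6 of 10 fits that left out a mouse. Sham array 1 of 0 h stood apart in that group, and without it 323 genes differed between the times. Without it 22 of the 23 genes of the text that differed remained past the threshold, and Vnn1 did not (difference 1.0, adjusted p = 0.0554).

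Against 24 h the effect differed for the neutrophil chemokines Cxcl5, Cxcl3, Cxcl1 and Cxcl2. Cxcl5 was at 0.35 at 24 h, 2.96 below its effect at 6 h (adjusted p = 0.0174), Cxcl3 at -0.03 (difference 2.69, adjusted p = 5.08e-05), Cxcl1 at 0.54 (difference 1.84, adjusted p = 0.00870) and Cxcl2 at 0.07 (difference 1.61, adjusted p = 0.0245). For Ccl20, Ccl3 and Ccl17 the differences of 1.39, 0.82 and 0.22 did not pass (limma, adjusted p = 0.120, 0.128 and 0.718). That of Ccl2, 0.48, passed (adjusted p = 0.0472), but not without the arrays that stood apart, named below. Hmox1 turned from 1.11 at 6 h to -0.68 at 24 h (difference 1.78, adjusted p = 4.26e-05). Csf2, Itih4 and Chil1 were also higher at 6 h, by 0.73, 1.04 and 0.62. The effect differed in 641 genes (3.52%), in 104 towards the positive at 6 h (0.572%) and in 537 towards the negative (2.95%). Heat shock genes also differed: Hspa1b went from 1.52 at 6 h to -3.51 at 24 h (difference 5.02, adjusted p = 7.17e-05), Dnaja1, a co-chaperone of Hsp70, from 0.61 to -1.33 (difference 1.93, adjusted p = 0.000132), Chordc1, a partner of Hsp90, from 0.60 to -1.09, and Cacybp from 0.29 to -1.35. Hspa1b of the 6 h sham controls was at -2.04 relative to the other sham groups. In the 6 h SPIO mice Hspa1b was at 1.6 relative to the other SPIO groups. Both values set 6 h against every other time of an arm rather than against 24 h alone. Which arm carried the difference from 24 h was not tested. Dnajb9, a chaperone of the endoplasmic reticulum, went from 0.29 to -0.59 and Bpnt1 from 0.05 to -0.89, and Cdt1, a licensing factor of DNA replication, from -0.11 to 0.80. Without sham array 1 of 0 h and SPIO array 3 of 24 h, which stood apart, 410 genes differed, and 26 of the 31 genes of the text remained past the threshold, all but Noxo1, Ccl2, Zbtb46, Cdkn2b and Hspa5.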

How the data were processed

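Each of the 60 mice had 1 array, and the authors summarised the arrays with RMA (version not given in the sources used here), depositing log2 expression values for 45101 probe sets. RMA forces the arrays to 1 distribution, so a shift common to most genes would not be seen. After 64 control probe sets were left out, 34945 of the rest had 1 gene symbol in the platform annotation, 932 several and 9160 none, and the probe set with the highest mean over the 60 arrays was kept for each of 18193 genes. Groups were taken from the sample titles. No 2 arrays held identical values, and the labels name separate mice.

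The 12 groups were fitted together with limma 3.58.1 in R 4.3.3 (lmFit and eBayes, 48 residual degrees of freedom before moderation), SPIO was contrasted with sham at each time and the contrasts of 6 h with those of 0 and 24 h, and p-values were adjusted by Benjamini-Hochberg over all genes. Values per group are the mean ± SD of 5 mice, and their precision is limited by how few arrays there are. The script was tested on simulated data. An exact permutation test over 5 against 5 mice could not go below p = 0.00794. Genes were named by rule: among those that passed without overlap between groups, the 20 that rose most and the 20 that fell most (unnamed transcripts passed over), then list members that passed, from each list its 4 smallest p-values, the 10 genes with the smallest adjusted p in each contrast between times, and the study's primer targets. Not all genes of the last kinds are printed. Others were chosen after their values were seen, among them those of the closing section and the members given without a call. The comparison and the gene lists were chosen with earlier results of these data known. Of 867 list entries 795 were measured. The alternatives tried were every probe set, averaged probe sets per gene, dim genes left out (log2 of at least 6 in at least 5 arrays asked), another quantile normalization, median centring, the 6 h arrays alone, a replicate block, array weights, trended robust moderation, the methods' test (unequal-variance test over the groups, then Tukey's), a fold minimum of 1.5, and each 6 h array left out. RefSeq promoters were of GRCm38.p6.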

Additional observations from a re-analysis of the deposited data

Results flagged for a closer look

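The difference between SPIO mice and sham controls was itself tested between times in limma, with mice of different times sharing no array, and genes of the text that passed an adjusted p of 0.05 are given with the effect at 6 h minus the effect at the other time, on the log2 scale. Against 0 h the effect was more positive at 6 h for Vnn1 (1.13), Lcn2 (1.33), Chil1 (0.63), Hsd11b2 (0.75), Zbtb46 (0.94), Igfbp4 (0.95), Zfp9 (0.80), Mtmr4 (0.94), Dido1 (0.83), Tnik (1.47), Cstf3 (0.72), Dnajb1 (1.70), Hspa1b (3.55), Hspa1a (3.81), Dnaja1 (1.51), Chordc1 (1.17), Syvn1 (0.50), Sec23b (0.45) and Smad6 (0.84). It was more negative at 6 h for N4bp2l2 (-0.70), Cpt1a (-0.76), Tceanc (-0.93) and Cdkn2b (-0.83).

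Against 24 h the effect was more positive at 6 h for Cxcl5 (2.96), Cxcl3 (2.69), Cxcl1 (1.84), Cxcl2 (1.61), Vnn1 (1.05), Noxo1 (0.82), Hmox1 (1.78), Itih4 (1.04), Csf2 (0.73), Chil1 (0.62), Hsd11b2 (0.65), Ccl2 (0.48), Zbtb46 (0.58), Zfp9 (0.64), Mtmr4 (0.83), Dido1 (0.52), Cstf3 (0.55), Dnajb1 (1.49), Dnajb9 (0.88), Hspa1b (5.02), Hspa1a (4.80), Dnaja1 (1.93), Chordc1 (1.69), Bpnt1 (0.94), Cacybp (1.64), Hspa5 (0.48), Syvn1 (0.56) and Smad6 (0.83). It was more negative for Cpt1a (-0.59), Cdkn2b (-0.51) and Cdt1 (-0.91).

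In 17 of 252 groups of 5 mice, over 126 genes of the text, 1 mouse stood apart from the others of its group by Dixon's test, which chance gives in about 1 group in 20. Among SPIO mice the lowest stood apart for Chd4 in mouse 1 (7.94), Sntb2 in mouse 1 (6.66), Lipa in mouse 1 (8.95), Zfp729a in mouse 1 (5.95), Ccl17 in mouse 3 (6.72), Ccl9 in mouse 3 (8.87) and Cdt1 in mouse 1 (7.68), and the highest for Cxcl10 in mouse 2 (6.74). Among sham controls the lowest stood apart for Ccl9 in mouse 4 (8.33), Ccl4 in mouse 3 (5.06), Icam1 in mouse 5 (11.36), Mvd in mouse 4 (6.66), Syvn1 in mouse 2 (8.83), Ube2j1 in mouse 2 (8.65) and Ephb4 in mouse 2 (7.91), and the highest for Steap3 in mouse 2 (7.72) and Slc26a4 in mouse 3 (7.0). SPIO mouse 1, whose array had the narrowest spread of values, was the one that stood apart for Chd4, Sntb2, Lipa, Zfp729a and Cdt1.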

How the results depend on the processing

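The 212 genes that differed (138 higher, 74 lower) became 1021 over all probe sets (278 higher, 743 lower, 27.23% of calls higher against 65.09%), 368 with averaged probe sets per gene (222 lower, 39.67% higher), 98 with the 6 h arrays alone (57 and 41), 847 with array weights (675 and 172, 79.69% higher) and 75 with the fold minimum (29 and 46). Another quantile normalization gave 139 lower genes (53.36% higher). Leaving out 1 mouse gave 98 (without sham mouse 2) to 291 (without SPIO mouse 1) genes, 59 to 242 higher and 39 to 98 lower. The 161 genes that differed between 6 h and 0 h became 272 with the filter on dim genes, 264 with another quantile normalization, 1037 with array weights, 323 without sham array 1 of 0 h, and 58 to 281 without 1 mouse of 6 h. The 641 that differed between 6 h and 24 h became 406 with the mean of probe sets, 407 with another quantile normalization, 1341 with array weights, 410 without the arrays that stood apart, and 230 to 1011 without 1 mouse of 6 h. The cause of these shifts was not tested, apart from the fewer samples or probe sets that an alternative uses by construction. The chemokine count was 6 to 10 throughout. Of 62 named genes that passed, 43 passed in all 10 fits that left out a mouse. Bpnt1, not called, turned from 0.05 to -0.018 with averaged probe sets. Deviations from the group mean, taken over genes, correlated between same-numbered SPIO and sham mice at 0.09, -0.12, 0.10, -0.24 and -0.47. These values gave no sign of pairing by number, and what the numbers stand for is not given. With the replicate block 224 genes differed (146 higher, 78 lower), 167 between 6 h and 0 h and 626 between 6 h and 24 h. RMA values carry no detection call, so how far dim levels stood above background is unknown.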

Other observations

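Genes of the secretory pathway were among the higher genes, chosen here after their values were seen and so given with no test of the group. Syvn1, the ubiquitin ligase of degradation from the endoplasmic reticulum, rose by 0.37, its partner enzyme Ube2j1 by 0.30, Sec23b, a coat protein of transport vesicles, by 0.35, Rpn1, a subunit of the glycosylation complex, by 0.30 and Spcs2, a subunit of signal peptidase, by 0.22 (limma, adjusted p under 0.05 each). The groups of these 5 genes did not overlap. Other probe sets were at -0.07 for Spcs2, 0.09 for Ube2j1, 0.22 to 0.32 for Rpn1 and 0.32 for Syvn1. Of these only that of Syvn1 passed in limma over all probe sets. In the unfolded protein response list 20 of 24 members had a positive log2 fold change (61.6% over all genes) and 0 were called.

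Genes associated with endothelium that rose were Smad6, an inhibitor of BMP signalling, by 0.55, the repressor Bcl6b by 0.45, the receptor Ephb4 by 0.41 and the transcription factor Atoh8 by 0.37. Of 18 endothelial markers 16 had a positive log2 fold change, 0 were called and 5 had an unadjusted p under 0.05, and their mean level was 10.09 in SPIO mouse 1, 10.31 to 10.38 in the other SPIO mice and 10.18 to 10.29 in sham controls. Without SPIO mouse 1 the endothelial markers Pecam1 and Eng were called higher and the list median was 0.16 against 0.08, and with array weights 4 were called. Fdps and Mvd, enzymes of sterol synthesis, rose by 0.48 and 0.47. Itih1, a relative of Itih4, rose by 0.58 and Serpind1, heparin cofactor 2, by 0.52.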
